A study of Mus musculus with 20 samples.

Results

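The genes described here are 9 neuropeptides and calcium-binding proteins that mark classes of inhibitory interneurons: Sst, Npy, Vip, Cck, Crh, Pnoc, Cort, Pvalb and Calb1. They were taken by gene symbol from the count files, by a rule that uses no measured value, and are 9 of the 47729 genes listed there. Earlier results of these data were known when they were chosen. The data are RNA-Seq read counts from the cortex and hippocampus of 5 WT and 5 Ube3a+2 mouse pups of strain C57Bl/6J at postnatal day 7 (P7), so the 20 libraries come from 10 mice. The WT mice carry the numbers 1 to 5 and the Ube3a+2 mice the numbers 6 to 10, and both libraries with 1 number come from 1 animal. The labels give the Ube3a+2 group as Ube3aOE. These mice carry 2 additional copies of the entire Ube3a gene with flanking sequence, from a bacterial artificial chromosome transgene, with Ube3a encoding a ubiquitin ligase. Most of the study's characterization used 1 transgenic line, with its insertion within chromosome 3, which is also the chromosome of Crh, and the labels do not name the line of these pups. The labels name no drug or deletion in either group, 1 mouse per library, and no sequencing batch.

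Interneurons of the cortex and hippocampus release GABA, and their classes are told apart by the peptides they co-release and by the proteins that buffer their calcium. Cells with Sst or Pvalb arise mainly in the medial ganglionic eminence, and those with Vip or Cck mainly in the caudal ganglionic eminence, both being transient structures of the embryonic forebrain. The peptides are cut from larger precursors, stored in dense core vesicles and act on G protein-coupled receptors. Several of these genes are not restricted to interneurons: Cck is also expressed by pyramidal cells, Calb1 by granule cells of the dentate gyrus and upper-layer pyramidal cells, and Pvalb by projection neurons outside the cortex. Pvalb is known to appear late in forebrain interneurons, after the first postnatal week.

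Sst and Cort encode related precursors, whose peptides somatostatin and cortistatin bind the same receptors. Of all 36 pairs of the 9 genes, the longest stretch of identical bases between transcripts of any pair was 21, and it lies in the coding sequences of Sst and Cort, where both peptides are encoded. The 30 bases of coding sequence at which the pair is most alike are printed here because they show how far reads of the genes could be confused. They are given 5′ to 3′ from GENCODE release M21 (GRCm38), with the 27 identical bases in capitals and the others in lower case.
Sst (chr16:23889739-23889768, minus strand): CTGCAAGAACTTCTTCTGGAAgACaTTCaC
Cort (chr4:149125277-149125306, minus strand): CTGCAAGAACTTCTTCTGGAAaACcTTCtC
None of the 9 genes overlapped another annotated gene. Each of them is annotated as protein coding, with Sst at chr16:23889573-23890958, Cort at chr4:149125034-149126763, Npy at chr6:49822710-49829507, Vip at chr10:5639218-5647617, Cck at chr9:121489824-121495694, Crh at chr3:19693401-19695396, Pnoc at chr14:65400673-65425472, Pvalb at chr15:78191114-78206400 and Calb1 at chr4:15881264-15908064 of GRCm38.

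Sst and Vip are textbook targets of the transcription factor CREB, which binds the cyclic AMP response element TGACGTCA. RefSeq promoter windows (GRCm38.p6, from 250 bases before to 50 bases after the start of transcription) were at hand for 6 of the 9 genes, while Calb1, Crh and Pnoc had no entry. The full element was found in the window of Sst, 48 bases before the start, and in 1.79% of all 32851 windows. The shorter element TGACG, searched on both strands and contained in the full one, was found in Sst, Vip, Cck and Cort and in 20.8% of all windows, and was absent from the windows of Npy and Pvalb. The windows of 30 bases around these matches follow 5′ to 3′ on the strand of the gene, with the match in capitals and as a description of the letters alone.
Sst (chr16:23890874-23890903, minus strand): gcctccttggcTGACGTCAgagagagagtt
Vip (chr10:5639126-5639155, plus strand): gggatcactactgTGACGtctttcggggag
Cck (chr9:121495725-121495754, minus strand): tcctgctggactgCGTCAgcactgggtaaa
Cort (chr4:149126765-149126794, minus strand): gctccggcttgtgCGTCAccgcgtgagtgt
In Cck and Cort the shorter element reads on the opposite strand. By GENCODE M21 the bases of Sst lie in its annotated exon, and those of Vip, Cck and Cort lie before the start of the gene.

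The libraries held 14191093 to 16752326 reads counted on genes. Ube3a was called in the Ube3a+2 mice in both tissues, at 129 to 181 CPM (counts scaled to a common library size with TMM factors) in cortex against 54.0 to 69.6 in WT, and at 143 to 194 CPM in hippocampus against 57.3 to 76.8. Genes of the sex chromosomes went against the labelled sex in both libraries of 2 WT mice. Marker lists of the regions followed the labels: 5 hippocampal genes summed to 37.0 to 130.1 CPM in cortex and 253 to 469 CPM in hippocampus, and 5 neocortical genes to 386 to 683 CPM in cortex and 116 to 282 CPM in hippocampus. Markers of tissue outside the labelled region set 7 libraries apart, each with at least 2 times the median of its region for a list and at least 5 CPM. In cortex these were Ube3a+2 mice 8 and 9, with hippocampal markers at 130.1 and 122 CPM against a median of 48.6. Of that list, Fibcd1 (54.7 and 44.0 CPM), Zbtb20 (48.7 and 51.9) and Prox1 (25.1 and 23.5) stood above every other cortex library. Dsp (0.239 and 0.731 CPM) and Lct (1.43 and 1.70 CPM) did not. In hippocampus they were WT mouse 2 (neocortical markers, 282 CPM), WT mouse 4 and Ube3a+2 mice 7 and 10 (thalamic and habenular markers, 300.1, 351 and 670.2 CPM against a median of 67.0), and Ube3a+2 mouse 9 (striatal markers, 305 CPM against 36.4). In mice 4, 7 and 10 the sums were mostly Tcf7l2, at 226, 271 and 563 CPM, with Lef1 and Tnnt1 also above the other hippocampal libraries. Prkcd, at 46.5, 41.9 and 43.5 CPM, lay within the range of those others. Pou4f1 was at 1.96 and 12.0 CPM in mice 4 and 10, but at 0.0605 CPM in mouse 7, within that range. Choroid plexus markers reached 1949 CPM in hippocampus of mouse 7 and 343 CPM in that of mouse 9, against a median of 18.0. In the cortex of mice 8 and 9 they summed to 6.45 and 9.68 CPM, against a median of 2.17. There Ttr was at 0.537 and 6.64 CPM, Kcnj13 at 3.04 and 0.609 CPM, Folr1 at 1.07 and 0.609 CPM, and Otx2 at 0 in both. Kl and Clic6 lay within the range of the other cortex libraries. Every gene of each of these lists had reads in each region. Markers of the hypothalamus, where Npy, Crh and Sst are abundant, summed to at most 2.82 CPM. The part of such tissue in the differences below was not tested, and the values are given with and without the 7 libraries. Of the hippocampal libraries kept, that of Ube3a+2 mouse 8 held 46.5 CPM of Tcf7l2, against 4.26 to 4.79 CPM in the others kept. The setting without the 7 libraries is thus not free of such markers. In bulk tissue, fewer cells of a type and less RNA per cell cannot be told apart.

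The level of each gene was compared per length as RPKM (CPM per kilobase of annotated exon, n = 10 mice of both genotypes, mean ± SD). In cortex Sst stood highest at 207 ± 44.0 RPKM, followed by Npy at 116 ± 10.7, Cck at 71.3 ± 10.1, Cort at 13.7 ± 7.06, Calb1 at 7.76 ± 2.73, Pnoc at 6.14 ± 2.23, Vip at 3.73 ± 0.859, Crh at 2.39 ± 0.434 and Pvalb at 0.291 ± 0.225. Each neighbour in this order differed from the next within mice (exact sign-flip permutation tests, two-sided, adjusted P from 0.00313 to 0.0114 over 16 neighbours in both regions). In hippocampus the order was Sst at 277 ± 57.4 RPKM, Cck at 147 ± 31.5, Npy at 94.5 ± 20.3, Cort at 19.7 ± 6.74, Pnoc at 14.2 ± 2.24, Calb1 at 12.9 ± 3.17, Pvalb at 1.79 ± 2.01, Vip at 1.64 ± 0.321 and Crh at 1.51 ± 0.381. There Cck stood above Npy in 9 of 10 mice (exact permutation test, adjusted P = 0.0156), while 4 neighbours did not differ beyond their spread: Cort and Pnoc (adjusted P = 0.103), Pnoc and Calb1 (0.350), Pvalb and Vip (0.279) and Vip and Crh (0.237, all by exact permutation). The level of Pvalb depended on the libraries set apart: without them it was 0.610 RPKM in 3 WT and 0.115 RPKM in 2 Ube3a+2 mice, below Crh at 1.79 and 1.45 RPKM. With the longest transcript in place of the union of exons, Cck and Npy changed places in cortex, as did Pnoc with Calb1 and Pvalb with Vip in hippocampus.

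**Figure D1:**
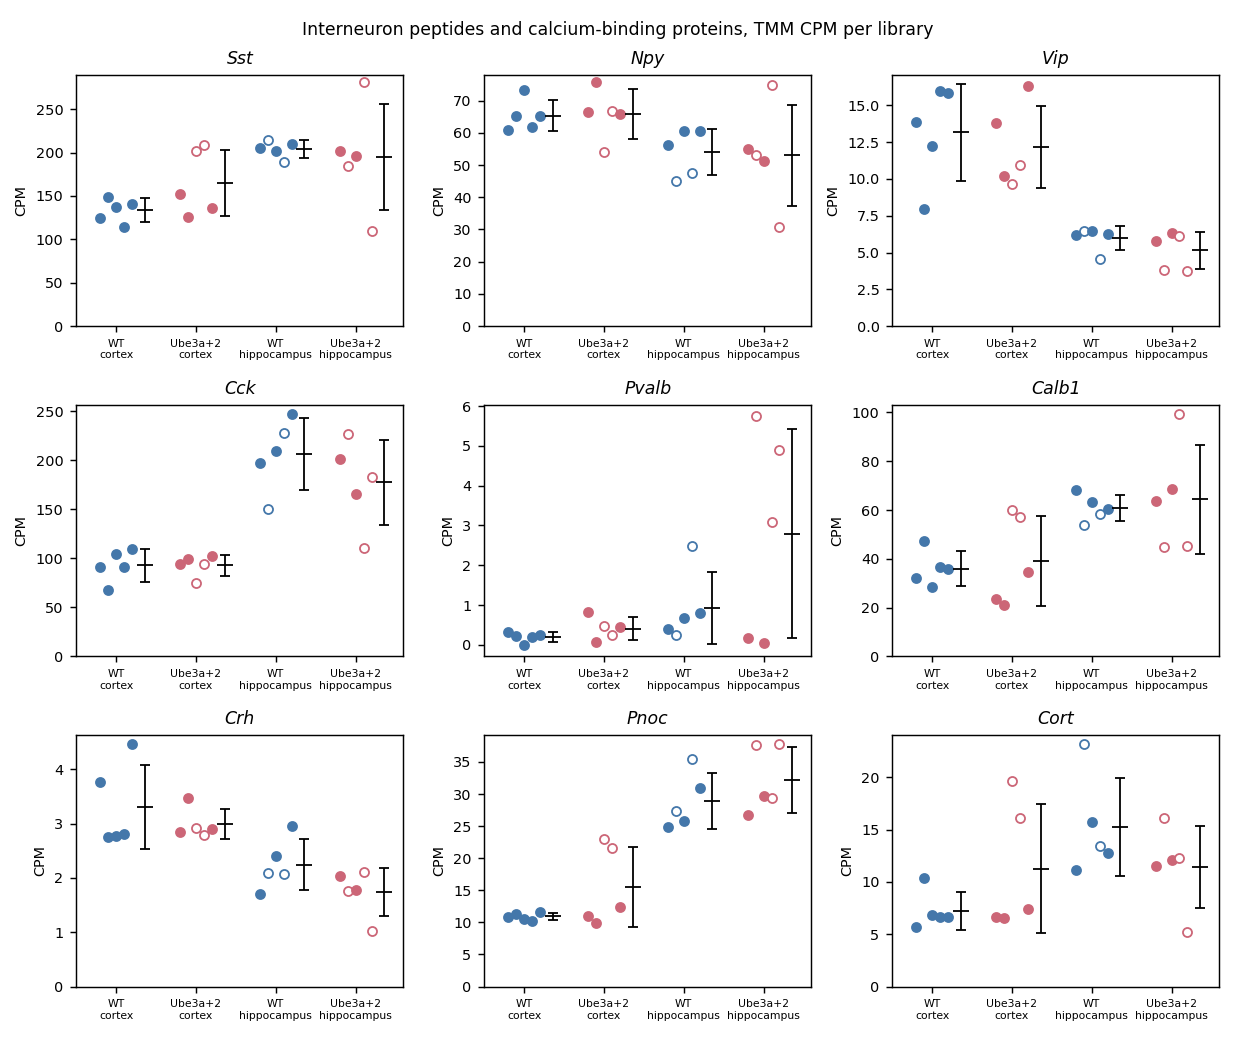
CPM (TMM-normalized) of the 9 genes in each library, by genotype and region, with 1 point per mouse in order of mouse number and the mean ± SD of 5 mice beside them. Open points are the 7 libraries set apart by markers of other tissue; in cortex the open points of Sst, Pnoc, Cort and Calb1 lie above all WT points, and in hippocampus Pvalb exceeds 2 CPM in 4 libraries, all open.

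Hippocampus and cortex were compared in all 10 mice, which asks how the markers are distributed between the regions at P7. Of the 9 genes, 5 were higher in hippocampus (Sst, Cck, Pnoc, Calb1 and Pvalb) and 3 were higher in cortex (Vip, Crh and Npy) at an adjusted P under 0.05 in edgeR's quasi-likelihood test, and Cort did not pass. Among all 15661 genes tested, 25.3% were higher in hippocampus and 25.6% higher in cortex, so that a call between the regions was common. The median log2 difference was 0.54 for the 9 genes and -0.01 for all genes tested. Without the 7 libraries set apart, 8 of the 9 were again called, beside 7746 of all 15938 genes tested: Cort was added and Pvalb lost.

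Sst, the peptide of interneurons that target dendrites, was 1.34-fold higher in hippocampus (log2 difference 0.42, SE 0.126, edgeR adjusted P = 0.00990). Its values in cortex, in order of mouse number, were 125, 149, 138, 115 and 141 CPM in WT and 153, 126, 202, 209 and 136 CPM in Ube3a+2. In hippocampus they were 206, 215, 202, 189 and 210.3 CPM in WT and 201, 185, 196, 281 and 110.1 CPM in Ube3a+2. Among the WT mice the regions did not overlap, whereas Ube3a+2 mouse 8 (202 CPM in cortex, 196 in hippocampus) and mouse 10 (136 and 110.1 CPM) went the other way, so that Sst was higher in hippocampus in 8 of 10 mice (exact sign-flip permutation test within mice, two-sided, P = 0.00781, the smallest possible being 0.00195). Without the libraries set apart the difference was 0.57 (SE 0.0612, edgeR adjusted P = 7.9e-07).

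Cort, the cortistatin gene of a subset of the same interneurons, gave 5.67, 10.4, 6.83, 6.63 and 6.63 CPM in WT cortex and 6.62, 6.56, 19.6, 16.1 and 7.38 CPM in Ube3a+2 cortex. In hippocampus it gave 11.2, 23.1, 15.8, 13.5 and 12.8 CPM in WT and 11.5, 16.1, 12.1, 12.3 and 5.20 CPM in Ube3a+2. All WT values in hippocampus lay above all WT values in cortex. Ube3a+2 mice 8, 9 and 10 were higher in cortex, the former pair through high cortical values and mouse 10 through the lowest hippocampal value. The difference between the regions was 0.54 on the log2 scale (SE 0.232, edgeR adjusted P = 0.0586), and 7 of 10 mice were higher in hippocampus (exact permutation P = 0.0488). Cort passed in DESeq2 (adjusted P = 0.0481) and with the mouse as a replicate block (edgeR, 0.56, adjusted P = 0.0204), and without the libraries set apart it was 0.82 (edgeR adjusted P = 4.78e-05).

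Pnoc, the precursor of nociceptin, was 2.32-fold higher in hippocampus (log2 difference 1.22, SE 0.136, edgeR adjusted P = 5.02e-07) and was higher there in 10 of 10 mice (exact permutation P = 0.00195). It gave 10.9, 11.4, 10.6, 10.3 and 11.6 CPM in WT cortex and 11.0, 9.83, 22.9, 21.6 and 12.4 CPM in Ube3a+2 cortex. In hippocampus the values were 24.9, 27.3, 25.8, 35.5 and 30.9 CPM in WT and 26.7, 37.7, 29.7, 29.3 and 37.8 CPM in Ube3a+2. The regions did not overlap over the 20 libraries, and the highest cortical values were again those of mice 8 and 9. In hippocampus, the 3 highest values belonged to the 3 libraries with the most thalamic and habenular markers, those of mice 4, 7 and 10.

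Cck, a peptide of basket cells and also of excitatory neurons, was 2.05-fold higher in hippocampus (log2 difference 1.03, SE 0.119, edgeR adjusted P = 9.63e-07). It gave 91.2, 67.5, 105, 90.9 and 110.0 CPM in WT cortex and 94.3, 99.2, 75.0, 94.0 and 103 CPM in Ube3a+2 cortex. In hippocampus it gave 198, 150.3, 209.7, 228 and 248 CPM in WT and 202, 227, 166, 111 and 183 CPM in Ube3a+2. The regions did not overlap, although the hippocampal library of mouse 9, with striatal markers, lay just above the highest cortical one. Cck was higher in hippocampus in 10 of 10 mice (exact permutation P = 0.00195).

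Vip, the peptide of interneurons that inhibit other interneurons, was 2.30-fold higher in cortex (log2 difference -1.20, SE 0.137, edgeR adjusted P = 3.73e-07). Its values were 13.9, 7.94, 12.2, 15.9 and 15.8 CPM in WT cortex and 13.8, 10.2, 9.67, 11.0 and 16.3 CPM in Ube3a+2 cortex. In hippocampus they were 6.17, 6.46, 6.49, 4.55 and 6.27 CPM in WT and 5.75, 3.81, 6.31, 6.10 and 3.77 CPM in Ube3a+2. The lowest cortical value, 7.94 CPM, was above the highest hippocampal value, 6.49 CPM, and the 3 lowest hippocampal values were those of mice 4, 7 and 10, with the thalamic and habenular markers. Vip was lower in hippocampus in each of the 10 mice (exact permutation P = 0.00195) and 2.17-fold lower without the libraries set apart.

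Crh, corticotropin-releasing hormone, was 1.60-fold higher in cortex (log2 difference -0.68, SE 0.138, edgeR adjusted P = 0.000340) at a low level in both regions. It gave 3.76, 2.75, 2.77, 2.81 and 4.46 CPM in WT cortex and 2.84, 3.47, 2.92, 2.80 and 2.90 CPM in Ube3a+2 cortex. In hippocampus it gave 1.71, 2.09, 2.41, 2.07 and 2.96 CPM in WT and 2.04, 1.75, 1.78, 2.12 and 1.02 CPM in Ube3a+2, from 17 to 51 reads per library. The regions overlapped through the hippocampus of WT mouse 5 alone (2.96 CPM), yet each of the 10 mice was higher in cortex (exact permutation P = 0.00195).

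Npy, neuropeptide Y, showed the smallest of the called differences, 1.23-fold higher in cortex (log2 difference -0.30, SE 0.109, edgeR adjusted P = 0.0269). Its values were 61.0, 65.2, 73.2, 61.9 and 65.2 CPM in WT cortex and 66.4, 75.8, 54.1, 66.7 and 65.8 CPM in Ube3a+2 cortex. In hippocampus they were 56.2, 45.2, 60.5, 47.6 and 60.5 CPM in WT and 54.8, 53.2, 51.3, 74.9 and 30.8 CPM in Ube3a+2. The lowest hippocampal values came from mouse 10 (30.8 CPM), WT mouse 2 (45.2 CPM) and WT mouse 4 (47.6 CPM), all set apart by markers, and Npy was higher in hippocampus in 1 of 10 mice, mouse 9 (exact permutation P = 0.00977). The call was lost without WT mouse 2 (-0.26, edgeR adjusted P = 0.0749), WT mouse 4 (-0.29, 0.0570), Ube3a+2 mouse 6 (-0.31, 0.0507) or Ube3a+2 mouse 7 (-0.27, 0.0695), and with library totals in place of TMM (-0.24, 0.0667) or no filter on low counts (-0.30, 0.0706), while without the 7 libraries it was -0.27 (edgeR adjusted P = 0.000818).

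Calb1, the calcium buffer calbindin, was 1.65-fold higher in hippocampus (log2 difference 0.73, SE 0.192, edgeR adjusted P = 0.00424) and higher there in 10 of 10 mice (exact permutation P = 0.00195). It gave 32.1, 47.3, 28.3, 36.6 and 35.6 CPM in WT cortex and 23.6, 20.95, 60.0, 57.0 and 34.5 CPM in Ube3a+2 cortex. In hippocampus it gave 68.1, 53.9, 63.3, 58.5 and 60.3 CPM in WT and 63.6, 44.9, 68.6, 99.3 and 45.2 CPM in Ube3a+2. The WT regions did not overlap, whereas the cortex of mice 8 and 9 reached hippocampal values and the hippocampus of mouse 9, with striatal markers, gave the highest value of all. Without the libraries set apart the log2 difference was 1.07 (SE 0.125, edgeR adjusted P = 8.18e-06).

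Pvalb, parvalbumin, was close to the limit of detection, at 0 to 13 reads per library in cortex. It gave 0.319, 0.223, 0, 0.191 and 0.248 CPM in WT cortex and 0.820, 0.0643, 0.478, 0.244 and 0.442 CPM in Ube3a+2 cortex, where the count of 0 in WT mouse 3 allows up to 3 reads or 0.193 CPM. In hippocampus it gave 0.412, 0.246, 0.679, 2.48 and 0.813 CPM in WT and 0.180, 5.75, 0.0595, 3.08 and 4.90 CPM in Ube3a+2. The 4 values above 2 CPM came from mice 4, 7, 9 and 10, all of which were set apart by thalamic and habenular or striatal markers, and the other 6 hippocampal libraries lay between 0.0595 and 0.813 CPM, within the cortical range. The difference over all libraries was 2.47 on the log2 scale (SE 0.683, edgeR adjusted P = 0.00562), but within mice it did not pass (8 of 10 mice higher in hippocampus, exact permutation P = 0.0742), nor in limma voom (1.80, adjusted P = 0.0991). Without the libraries set apart it was -0.09 (95% interval -1.24 to 1.05), edgeR adjusted P = 0.902, and a difference between the regions was not detectable at this depth.

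**Figure D2:**
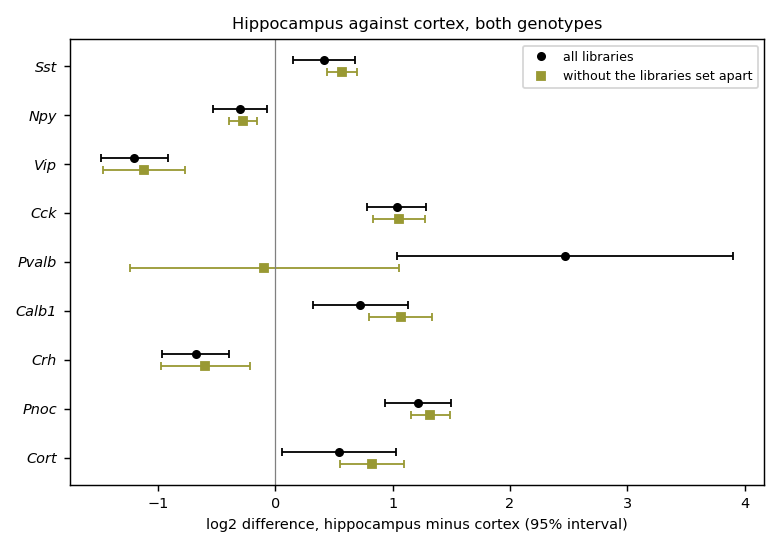
Log2 difference between hippocampus and cortex for the 9 genes with 95% confidence intervals from edgeR's quasi-likelihood fit, over all 20 libraries (circles) and over the 13 left without those set apart (squares). Intervals to the right of 0 are higher in hippocampus; Pvalb moves from 2.47 to -0.09, and Cort from 0.54 to 0.82.

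The genotypes were compared within each tissue, which asks whether additional Ube3a changes these markers. In cortex 0 of 8 genes tested passed an adjusted P under 0.05 in edgeR, DESeq2 or limma voom, and Pvalb fell below the filter on low counts. The background was 1 of 14947 genes, or 0.00669%, which was Ube3a (log2 difference 1.31, SE 0.113, edgeR adjusted P = 0.000822). At an unadjusted P under 0.05 edgeR gave 1 of the 8 genes, Pnoc, beside 4.44% of all genes in edgeR. DESeq2 gave 3, which were Pnoc, Cort and Sst, and limma voom 0. No share of all genes was taken for these 2 tools, so the 3 genes of DESeq2 have no background. The groups overlapped for all 9 genes, and the exact permutation P of 5 against 5 mice was 0.143 or more.

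Of the 8 genes tested in cortex, Pnoc, Cort and Sst had the largest log2 differences. Pvalb, not tested there, was at 0.196 CPM in WT and 0.409 CPM in Ube3a+2 on average, from 0 to 13 reads (exact permutation P = 0.167). Pnoc was at 10.9 ± 0.547 CPM in WT and 15.6 ± 6.21 CPM in Ube3a+2 (SD, n = 5 mice each, log2 difference 0.51, 95% interval 0.02 to 1.01, edgeR adjusted P = 0.960). For Cort the means were 7.23 ± 1.82 and 11.3 ± 6.16 CPM (log2 difference 0.65, 95% interval -0.10 to 1.40, edgeR adjusted P = 0.960). For Sst they were 133 ± 13.8 and 165 ± 38.0 CPM (log2 difference 0.31, 95% interval -0.0021 to 0.62, edgeR adjusted P = 0.960). In each case mice 8 and 9, whose cortex libraries held 130.1 and 122 CPM of hippocampal markers, were the 2 highest, and the other 3 Ube3a+2 mice gave 9.83 to 12.4 CPM of Pnoc, 6.56 to 7.38 CPM of Cort and 126 to 153 CPM of Sst, which overlapped WT. Without them the log2 differences were 0.02 (95% interval -0.22 to 0.26) for Pnoc, -0.07 (95% interval -0.46 to 0.31) for Cort and 0.05 (95% interval -0.14 to 0.24) for Sst. Calb1 went from 0.13 (95% interval -0.57 to 0.83) to -0.45 (95% interval -0.87 to -0.03), a change of sign, with an edgeR adjusted P = 0.9999. For Npy the difference was 0.01 (95% interval -0.16 to 0.19) and for Cck 0.0023 (95% interval -0.26 to 0.27), intervals within 0.5 in either direction, the border the study set on the log2 scale. Vip, at -0.11 (95% interval -0.53 to 0.30), and Crh, at -0.15 (95% interval -0.52 to 0.22), had intervals that reached past this border on the lower side.

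**Figure D3:**
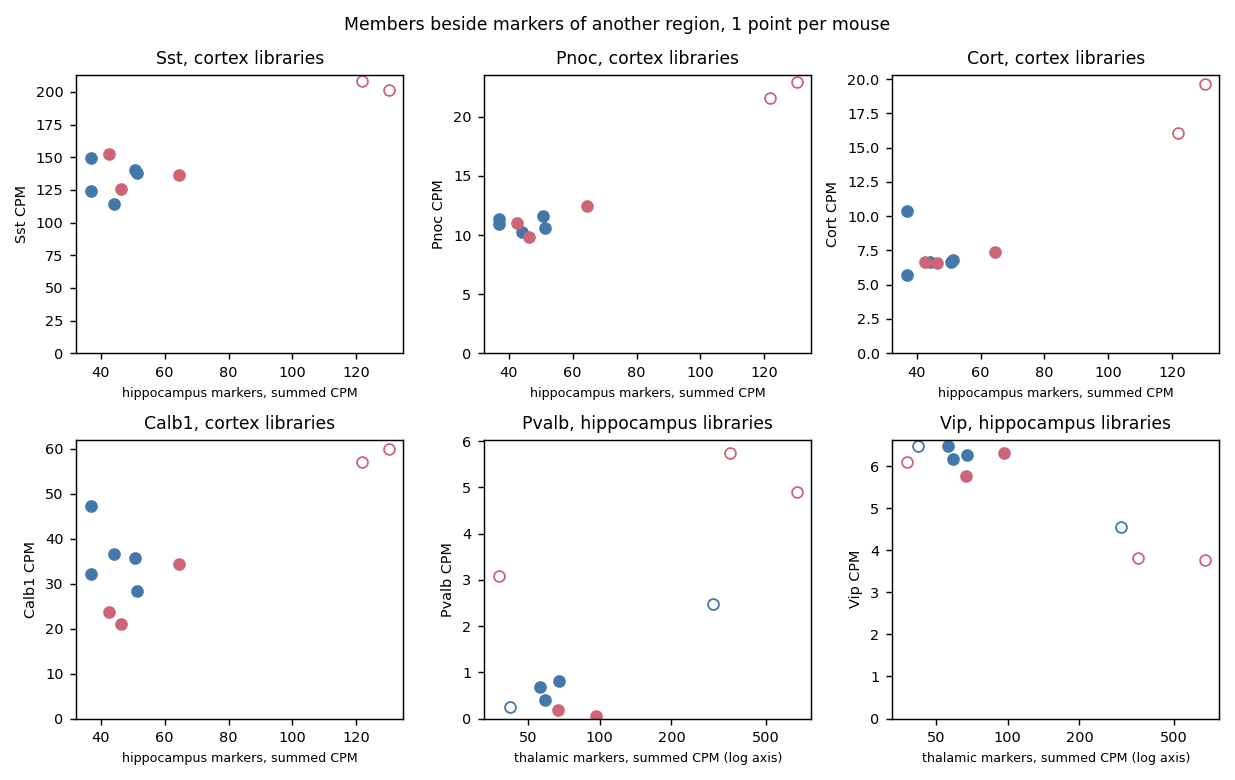
CPM of Sst, Pnoc, Cort and Calb1 in the 10 cortex libraries against the summed CPM of 5 hippocampal markers, and of Pvalb and Vip in the 10 hippocampus libraries against the summed CPM of 5 thalamic and habenular markers (log axis), with WT in blue, Ube3a+2 in red and libraries set apart as open points. In cortex the 2 open points (mice 8 and 9) are the highest in all 4 panels, and in hippocampus the 3 libraries above 300 CPM of these markers have the lowest Vip.

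In hippocampus 0 of 9 genes passed in edgeR, DESeq2 or limma voom, also at an unadjusted P under 0.05. The background was again Ube3a alone, 1 of 15220 genes or 0.00657% (log2 difference 1.32, SE 0.1104, edgeR adjusted P = 0.000441). In edgeR, 7.21% of genes had an unadjusted P under 0.05. Cort was at 15.3 ± 4.71 CPM in WT and 11.4 ± 3.94 CPM in Ube3a+2 (log2 difference -0.42, 95% interval -1.03 to 0.20). Cck was at 207 ± 36.8 and 178 ± 43.7 CPM (-0.22, 95% interval -0.63 to 0.19), and Crh at 2.25 ± 0.470 and 1.74 ± 0.435 CPM (-0.37, 95% interval -0.85 to 0.11). None of these intervals left out 0. With the libraries set apart left out, Cort was at -0.17 (95% interval -0.51 to 0.18), Crh at -0.31 (95% interval -0.94 to 0.32) and Cck at -0.25 (95% interval -0.50 to -0.01, edgeR unadjusted P = 0.0404), and 0 of the 9 genes passed after adjustment. Vip had a log2 difference of -0.22 (95% interval -0.60 to 0.16), Sst of -0.07 (95% interval -0.50 to 0.36), Npy of -0.03 (95% interval -0.46 to 0.41), Calb1 of 0.08 (95% interval -0.37 to 0.53) and Pnoc of 0.16 (95% interval -0.11 to 0.42). The intervals of Sst, Npy and Pnoc stayed within 0.5 in either direction. The spread between Ube3a+2 mice was wide for Sst, at 195 ± 60.8 CPM against 204 ± 10.0 CPM in WT, where the highest and lowest values came from mice 9 and 10. The largest log2 difference was that of Pvalb, 0.925 ± 0.895 CPM against 2.79 ± 2.62 CPM (log2 difference 1.57, 95% interval -0.61 to 3.76, edgeR adjusted P = 0.701). Without the 5 hippocampal libraries set apart, which leaves 3 WT and 2 Ube3a+2 mice and 1 to 14 reads of Pvalb each, its difference turned to -2.35 (95% interval -3.86 to -0.84) with an edgeR adjusted P = 0.999.

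Whether the genotype difference itself differed between the tissues was tested as an interaction. It passed for 0 of 15661 genes in edgeR, a background of 0%, and for 0 of the 9 genes in edgeR, DESeq2 and limma voom. In edgeR, 3.77% of all genes had an unadjusted P under 0.05. Cort was the 1 gene of the 9 under that level in edgeR (-1.06, 95% interval -2.03 to -0.08, unadjusted P = 0.0348, adjusted P = 0.997), as its mean was higher in Ube3a+2 cortex and lower in Ube3a+2 hippocampus. With the mouse as a replicate block Sst was also under that level (-0.41, SE 0.146, edgeR unadjusted P = 0.0173, adjusted P = 0.797), beside Cort (-0.98, unadjusted P = 0.0200). Without the libraries set apart the value of Cort was -0.09 (95% interval -0.64 to 0.46), while Pvalb turned from 0.54 (95% interval -2.73 to 3.82) to -3.48 (95% interval -5.82 to -1.14, edgeR unadjusted P = 0.00607), with 1 to 14 reads in each hippocampal library left.

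**Figure D4:**
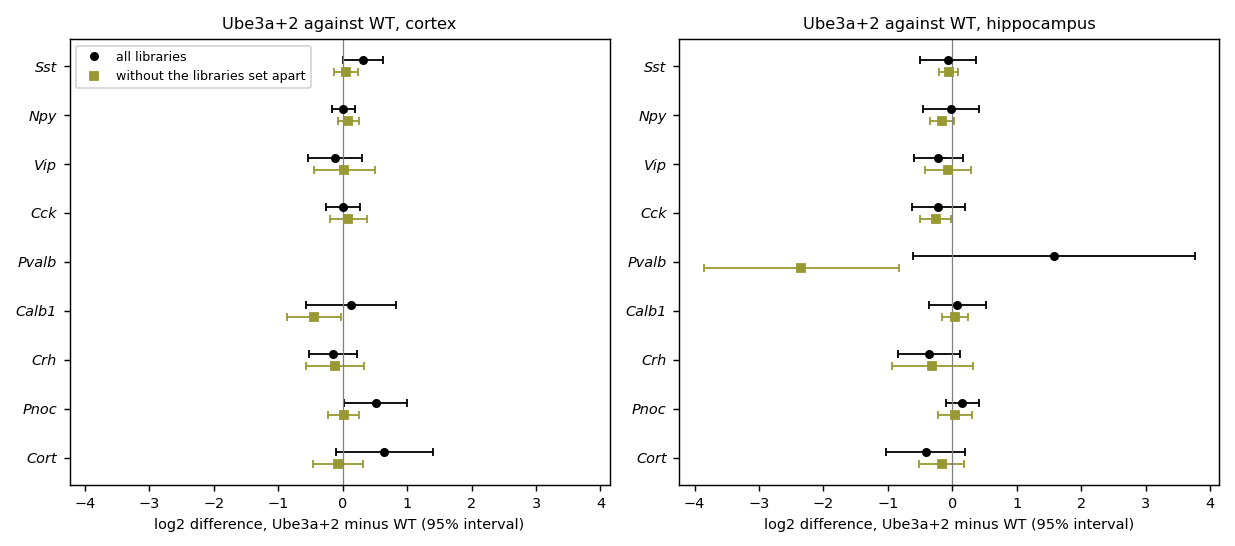
Log2 difference between Ube3a+2 and WT mice in cortex (left) and hippocampus (right) with 95% confidence intervals from edgeR, over all libraries (circles) and without the libraries set apart (squares). Pvalb was not tested in cortex; in cortex the circles of Sst, Pnoc and Cort, at 0.31, 0.51 and 0.65, move to 0.05, 0.02 and -0.07 as squares.

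Variation between mice was compared for all 36 pairs of genes in each region, 72 pairs in all, over the 10 mice of both genotypes. In cortex 5 pairs passed an adjusted P under 0.05 by Pearson's r: Pnoc with Cort, Sst with Pnoc, Sst with Cort, Calb1 with Cort and Calb1 with Pnoc. By Spearman's rho no pair passed in either region, the smallest adjusted permutation P being 0.316. For Pnoc and Cort, Pearson's r was 0.93 (permutation P = 0.00409, adjusted 0.0383) and Spearman's rho 0.78 (permutation P = 0.0106, adjusted 0.316). For Sst and Cort, r was 0.91 (permutation P = 0.00208, adjusted 0.0363) and rho 0.70 (permutation P = 0.0305, adjusted 0.316). The values of r and rho were 0.92 and 0.75 for Sst with Pnoc, and 0.84 and 0.79 for Calb1 with Cort. For Calb1 with Pnoc they were 0.81 and 0.71, and the adjusted permutation P of r was 0.0363 in each of these 3 pairs. Without the 2 mice farthest from the median of the first gene, r was 0.34 for Pnoc with Cort, 0.51 for Sst with Cort, 0.50 for Sst with Pnoc, 0.84 for Calb1 with Cort and 0.71 for Calb1 with Pnoc. Over the 8 mice left without the cortex libraries of mice 8 and 9, 0 of the 36 pairs passed, and r was 0.34, 0.51, 0.50, 0.60 and 0.53 in the same order. In hippocampus 3 pairs passed: Sst with Npy (r = 0.91, rho = 0.61, permutation P = 0.00426 and 0.0659, adjusted 0.0383 and 0.316), Sst with Vip (r = 0.70, rho = 0.64, permutation P = 0.00336 and 0.0547, adjusted 0.0383 and 0.316) and, in opposite directions, Vip with Pnoc (r = -0.89, rho = -0.66, permutation P = 0.00224 and 0.0448, adjusted 0.0363 and 0.316). Without the 2 farthest mice these r were 0.13, 0.85 and -0.72. With 5 hippocampal libraries left after those set apart, no value was computed.

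The receptors of the 9 genes' peptides were read as a list of 16 genes, of which 13 passed the filter on low counts. Of these, 3 were higher in hippocampus and 3 higher in cortex in edgeR, with a median log2 difference of 0.07, beside the 25.3% and 25.6% of all genes. Npy2r, a presynaptic receptor of neuropeptide Y, was at 1.35 to 8.00 CPM in cortex and 16.5 to 35.0 CPM in hippocampus (log2 difference 3.27, SE 0.263, edgeR adjusted P = 1.78e-08), and its highest cortical value came from a Ube3a+2 mouse. Among the receptors shared by somatostatin and cortistatin, Sstr2 was at 29.1 to 44.7 CPM in cortex and 41.7 to 87.5 CPM in hippocampus (log2 difference 0.75, SE 0.135, edgeR adjusted P = 0.000150). Sstr1 went the other way, at 38.5 to 53.7 CPM and 20.0 to 38.8 CPM (log2 difference -0.81, SE 0.103, edgeR adjusted P = 2.17e-06). Sstr1 and Sstr2 thus differed between the regions in opposite directions, while Sstr3 (log2 difference -0.07, SE 0.128, edgeR adjusted P = 0.667) and Sstr4 (log2 difference 0.16, SE 0.118, edgeR adjusted P = 0.269) did not pass. Crhr1, the main receptor of corticotropin-releasing hormone in the forebrain, was at 39.7 to 62.2 CPM in cortex and 18.1 to 31.8 CPM in hippocampus (log2 difference -1.28, SE 0.0972, edgeR adjusted P = 3.3e-09), the direction of Crh itself. Vipr1 was also higher in cortex (log2 difference -0.76, SE 0.171, edgeR adjusted P = 0.000962), like Vip, and Cckbr was higher in hippocampus (log2 difference 0.57, SE 0.177, edgeR adjusted P = 0.0114), like Cck. Npy2r, in contrast, went opposite to Npy (log2 difference -0.30). Sstr1 went opposite to Sst (log2 difference 0.42), and Sstr2 went the same way as Sst.

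The remaining receptors did not pass. They were Npy1r (log2 difference 0.07, SE 0.104, edgeR adjusted P = 0.615), Npy5r (log2 difference 0.16, SE 0.170, edgeR adjusted P = 0.444), Vipr2 (log2 difference 0.06, SE 0.175, edgeR adjusted P = 0.787), Crhr2 (log2 difference 0.15, SE 0.248, edgeR adjusted P = 0.637) and the nociceptin receptor Oprl1 (log2 difference -0.19, SE 0.0849, edgeR adjusted P = 0.0716). Sstr5, Npy4r and Cckar were below the filter, with group means of at most 1.07, 0.388 and 0.451 CPM. Without the libraries set apart 4 receptors were higher in each region, with Npy1r (0.24, edgeR adjusted P = 0.0455) and Oprl1 (-0.41, 5.96e-05) added. The background there was 7746 of 15938 genes called in either direction. With the mouse as a replicate block there were also 4 and 4, with Sstr4 and Oprl1 added, beside 8737 genes called in either direction. Between genotypes 0 of the 13 receptors passed in either tissue in edgeR, and 1 in each had an unadjusted P under 0.05, Npy2r in cortex and Vipr2 in hippocampus. The shares of all genes under that level were 4.44% and 7.21%. In cortex Npy2r was at 1.35 to 2.74 CPM in WT and 1.58 to 8.00 CPM in Ube3a+2. The genotype results of the receptors were taken with all libraries only, including those set apart by markers.

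**Figure D5:**
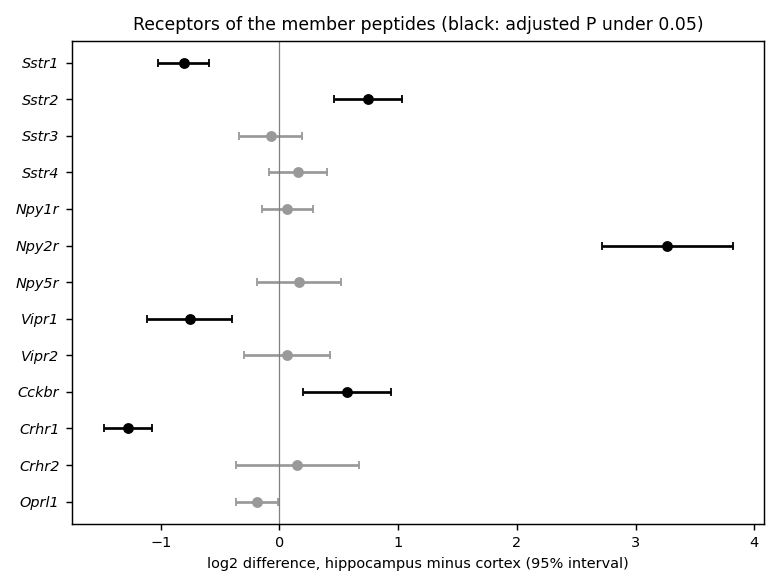
Log2 difference between hippocampus and cortex for the 13 tested receptors of the member peptides with 95% confidence intervals from edgeR over 20 libraries, in black where the adjusted P is under 0.05 and in grey otherwise. Npy2r stands furthest to the right at 3.27 and Crhr1 furthest to the left at -1.28.

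Genes that make and store peptides were also read by list. Of 11 genes for peptide processing and dense core vesicles, 6 were higher in hippocampus and 2 higher in cortex (median log2 difference 0.19), beside 25.3% and 25.6% of all genes tested, which is also the background of the lists that follow. The smallest P values were those of Cpe, carboxypeptidase E, which trims peptide precursors (log2 difference 0.51, SE 0.0419, edgeR adjusted P = 4.87e-09), Vgf, a secreted granule protein (log2 difference 1.47, SE 0.131, edgeR adjusted P = 4.75e-08), and Scg2, secretogranin 2 (log2 difference 0.85, SE 0.0915, edgeR adjusted P = 2.96e-07). Of 4 pan-GABAergic genes, 3 were higher in hippocampus and none in cortex (median 0.46). Gad1 (log2 difference 0.62, SE 0.126, edgeR adjusted P = 0.000493) and Gad2 (log2 difference 0.78, SE 0.166, edgeR adjusted P = 0.000756), which make GABA, were among them. The direction of both was that of Sst and Pnoc and opposite to that of Vip.

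Transcription factors of the lineages did not follow 1 direction. Of 7 factors of interneurons from the medial ganglionic eminence, 6 were tested, with 1 higher in hippocampus and 4 higher in cortex (median -0.48), beside 25.3% and 25.6% of all genes. Satb1 (log2 difference -1.21, SE 0.101, edgeR adjusted P = 1.62e-08) and Maf (log2 difference -0.46, SE 0.0615, edgeR adjusted P = 2.93e-06) were among the latter, and each is also expressed by other cells of the cortex. Of 5 factors of the caudal ganglionic eminence, 1 was higher in hippocampus, Prox1 (log2 difference 3.21, SE 0.199, edgeR adjusted P = 1.26e-09), which also marks granule cells of the dentate gyrus and belongs to the hippocampal marker list. Of 12 other interneuron markers, 5 were higher in hippocampus and none in cortex (median 0.71), led by Htr3a, a serotonin-gated channel (log2 difference 1.12, SE 0.138, edgeR adjusted P = 9.58e-07), Calb2, calretinin (log2 difference 1.84, SE 0.281, edgeR adjusted P = 3.7e-05), and Ndnf, of neurogliaform cells (log2 difference 0.72, SE 0.133, edgeR adjusted P = 0.000163). Without the libraries set apart, the genes higher in hippocampus and in cortex were 6 and 3 for peptide processing, 4 and 0 for the pan-GABAergic list, 1 and 4 for the medial list, 1 and 0 for the caudal list and 7 and 1 for the other markers. In that setting 7746 of all 15938 genes tested were called in either direction. Between genotypes 0 genes of these lists passed in either tissue in edgeR, the tool run on them, and at an unadjusted P under 0.05 there were in the same order 2, 0, 0, 1 and 3 in cortex and 1, 0, 1, 0 and 2 in hippocampus, beside 4.44% and 7.21% of all genes. These genotype counts were taken with all libraries only, including those set apart by markers.

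For each of the 9 genes, the genes with the most similar pattern were sought over the 20 libraries after the mean of each genotype and region was taken out, among 14333 genes of at least 1 CPM on average. The measure was Pearson's r of log2 CPM, given as a description, since the libraries share mice and 7 of them hold markers of other tissue. Sst was most like Gad1, which makes GABA (r = 0.91), Vrk1 (0.89) and Bcl11b (0.88). Npy was most like Cdk5r1 (0.86), Nxph4 (0.83) and Dlx1, an interneuron transcription factor (0.83). Vip was most like Thrb (0.94), Kcnq5 (0.87) and Lrrc8b (0.87), and Cck most like Acadvl (0.91), Tacc3 (0.88) and B2m (0.86). Calb1 was most like Neurl1a (0.92), Filip1 (0.92) and Fam105a (0.89), Pnoc most like Arsj (0.88), Pappa (0.87) and Vgf (0.86), and Cort most like Cnrip1 (0.90), Prss8 (0.87) and Arg2 (0.86). Pvalb was most like Col9a2 (0.87), Slc4a2 (0.86) and Tekt2 (0.84). The lowest values were those of Crh, with Nfyb (0.79), Morn1 (0.76) and 2900009J06Rik (0.76).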

How the data were processed

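RNA from the cortex and hippocampus of each pup was made into stranded mRNA libraries. The submitters' processing notes name HISAT2 2.1.0, HTSeq 0.11.2 and the build GRCm38 (mm10), and the annotation and strand setting are not given in the sources used here. The authors deposited whole-number read counts per gene for each library, not normalized. Closing lines that name no gene were left out. Between 69.7% and 81.2% of a library's reads fell on genes, and 10.3% to 13.7% had several alignments.

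The 9 genes, the gene lists and the tests were chosen with earlier results of these data known. Counts were tested in R 4.3.3 with edgeR 4.0.16 (TMM, filterByExpr, robust quasi-likelihood F test) and Benjamini-Hochberg adjustment over all genes tested. Regions and the interaction were tested over 20 libraries, and genotypes over the 10 libraries of a tissue. The main fit over 20 libraries held no term for the mouse, so the 2 libraries of a mouse counted as independent. DESeq2 1.42.0 and limma 3.58.1 (voom) were alternatives. CPM used TMM factors, with 0.1 CPM added before the logarithm of single values. RPKM used the exons of GENCODE M21, which held 47310 of the 47729 identifiers. Exact permutation tests of 1 gene were two-sided, with 0.00794 as the smallest P for 5 against 5 mice, and correlations used 100000 permutations. The fit was tested on simulated data. P values measure the spread between these mice, or between libraries in the main fits of regions and the interaction. Limits from a count of 0 cover counting error only. The same number marks the same mouse in the labels. Deviations of a mouse's 2 libraries from their group means correlated across genes at -0.032 to 0.33 (median 0.25), over 0.1 in 9 of 10 mice.

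Named genes were the 9 genes, Ube3a, the receptors of their peptides, the 3 genes of each other list with the smallest P between regions, and the 3 genes most like each of the 9. Some genes that this rule names are not reported here. Of the marker lists, that of Cajal-Retzius cells summed to 86.1 to 209 CPM and set no library apart. The sum was mostly Reln, at 65.0 to 191 CPM. Trp73 was at 1.34 to 6.45 CPM in cortex and 7.76 to 14.7 CPM in hippocampus, and Ebf3 at 0.442 to 2.03 and 2.40 to 6.52 CPM. Lhx1 and Lhx5 overlapped between the regions. The part of these cells in the differences between the regions was not tested. The list of cholinergic neurons set apart the same 3 hippocampal libraries as the thalamic and habenular list, at 96.5 to 228 CPM against a median of 24.5. These sums were mostly Zic1, at 106, 92.5 and 218 CPM in mice 4, 7 and 10. Chat, at 0.115, 0.121 and 1.14 CPM there, was highest in mouse 9, at 1.54 CPM. Slc18a3 was also highest in mouse 9, at 4.62 CPM, and Slc5a7 in mouse 10, at 6.76 CPM. Python 3.11.15, pandas 2.3.3, scipy 1.17.1 and matplotlib 3.10.9 were used for the remaining steps.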

Additional observations from a re-analysis of the deposited data

Results flagged for a closer look

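In 4 of 36 combinations of a gene and a group of 5 mice, 1 mouse stood far from the other 4, by a gap above the 95% critical value of Dixon's test, where chance alone gives about 1.8 of 36. In WT hippocampus, mouse 4 had the lowest Vip, at 4.55 CPM against 6.17 to 6.49 in the others, and the highest Pvalb, at 2.48 CPM against 0.246 to 0.813, and the same library held 300.1 CPM of thalamic and habenular markers. The part of that tissue in these values was not tested. Cort in WT cortex was highest in mouse 2, at 10.4 CPM against 5.67 to 6.83. Crh in Ube3a+2 cortex was highest in mouse 7, at 3.47 CPM against 2.80 to 2.92, which are 54 and 45 to 49 reads.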

How the results depend on the processing

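The counts were also tested with DESeq2, limma voom, RLE size factors or library totals in place of TMM, without the filter on low counts, with a term for the labelled sex, with the mouse as a replicate block or all 20 libraries fitted together, and after leaving out 1 mouse at a time. Leaving out the 7 libraries set apart by markers was chosen after seeing the data. Between the regions, 7 to 9 of the 9 genes were called under these alternatives, while the main fit called 7973 of all 15661 genes. Between genotypes in either tissue and for the interaction, 0 of the 9 were called. With the mouse as a replicate block, 9 were called between the regions, beside 8737 of all genes. Cort was added (0.56, edgeR adjusted P = 0.0204), Pvalb was at 2.16, and the block changed no other call of the 9 genes. By exact permutation 0 of 18 single comparisons between genotypes had an unadjusted P under 0.05, and leaving out 1 mouse gave 0 to 3. The 3 came without Ube3a+2 mouse 7, which leaves mice 8 and 9 as 2 of 4, and were Pnoc, Pvalb and Sst in cortex (exact permutation P = 0.0238, 0.0238 and 0.0476). The exact test was run on the 9 genes alone, so these counts have no share of all genes to be read against. Of the 5 pairs that passed in cortex, 0 passed over the 8 mice without the libraries set apart, with r of 0.34 to 0.60.

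Without those libraries, 5 log2 differences between regions or genotypes changed sign: Pvalb between regions (-0.094), Vip (0.024), Calb1 (-0.45) and Cort (-0.072) between genotypes in cortex, and Pvalb between genotypes in hippocampus (-2.35). So did 3 interaction values: Pvalb (-3.48), Calb1 (0.50) and Pnoc (0.034). With the labelled sex, Calb1 between genotypes in hippocampus was -0.032. With 1 mouse left out, genotype differences that had not passed changed sign in cortex for Npy (-0.044 to 0.072), Cck (-0.097 to 0.069) and Calb1 (-0.078 to 0.29), and in hippocampus for Sst (-0.24 to 0.080), Npy (-0.18 to 0.12) and Calb1 (-0.13 to 0.19). The cause was not tested. Depth limits Pvalb most, at 0 to 13 reads per cortex library, and then Crh, at 17 to 72 reads per library.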
